A study of Arabidopsis thaliana with 18 samples.

Results

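The genes described here are the core cell cycle regulators of the thale cress Arabidopsis thaliana: the A-, B- and D-type cyclins, the A- and B-type cyclin-dependent kinases (CDKs) and the KRP inhibitors. They were chosen by locus code from their gene families, with earlier results of these data known. They make up 41 of the 34218 features in the count table. There were 10 A-type cyclins, 9 B-type cyclins, 10 D-type cyclins, 5 CDKs and 7 KRPs. Enough reads for a test were found for 39 of the 41. CYCA3;3 and CYCD7;1 had 0 reads in all 18 libraries.

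A CDK is active only when a cyclin is bound to it. D-type cyclins act mainly with CDKA;1 at entry into the cycle, where they phosphorylate the retinoblastoma protein RBR and so release E2F factors that switch on DNA replication genes. A-type cyclins act from DNA replication into mitosis, and B-type cyclins together with the plant-specific B-type CDKs drive mitosis. KRPs bind cyclin-CDK complexes, above all those with D-type cyclins, and block them. In roots these genes are used mainly in the meristem of the tip and in the pericycle, the layer from which lateral roots start.

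The study asked which responses to the drought hormone abscisic acid (ABA) depend on VND factors, the NAC transcription factors that switch on xylem vessel formation. Its groups were vnd123, a mutant of VND1, VND2 and VND3, in ABA and in mock, the VND7 mutant vnd7 in ABA and in mock, and the wild type Col-0 in ABA and in mock, with 3 libraries each. All seedlings were 5 days old, were grown on plates in long days and were moved to 1 µM ABA or mock plates for 8 h, and the sampled tissue was root, with roots of 1 cm named in the series design. Each library pooled 50 to 100 seedlings, the mutant alleles are not given in the labels, and the labels number the replicates without saying whether they were grown separately. The p-values therefore cover only how far these 18 samples spread, and that spread may be technical.

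Libraries held 38325491 to 58705802 counts, of which the 41 genes took 0.0736% to 0.0807%. On the first principal component, which held 62.6% of the variance, all 9 ABA libraries lay on one side and all 9 mock libraries on the other. The mutated genes had fewer reads in their own line: VND2 was at 0.592 to 0.824 CPM in vnd123 ABA and 2.68 to 4.13 CPM in Col-0 ABA, and VND7 was at 0.230 to 0.406 CPM in vnd7 ABA and 5.46 to 5.79 CPM in Col-0 ABA (CPM, each count divided by the library size in 1e+06 reads, with library sizes scaled by TMM factors). VND1 was at 0.0185 to 0.386 CPM in vnd123 ABA and 0.514 to 1.36 CPM in Col-0 ABA, and VND3 at 1.37 to 1.44 CPM in vnd123 ABA and 5.49 to 6.16 CPM in Col-0 ABA. All 12 root cell type markers were tested and had reads in every group, 5 of them higher and 3 lower in ABA. Averaged over genotypes, 28.7% of all genes were higher and 24.5% lower. Without scaling of library sizes 5 of these markers were higher and 6 lower, beside 4510 and 7346 of all 20869 genes tested. Summed over 6 green tissue markers, the level was 35.8 to 66.4 CPM in the ABA libraries and 55.5 to 104 CPM in the mock libraries. Of the 5 of these that could be tested, 3 were lower and 1 higher in ABA. The part of this tissue in the cell cycle results was not tested. Of 5 shoot meristem markers, no gene had more than 20 reads in any library, and 1 to 3 of them had 0 reads in a given group. CLV3, the 1 of these with enough reads for a test, was at 0.103 to 0.516 CPM in ABA and 0 to 0.0872 CPM in mock and was higher in ABA.

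Levels between genes were compared per length, as CPM per kb of exon in Col-0 mock roots (mean ± SD, n = 3). The order was led by the kinases CDKA;1 at 41.1 ± 1.5 and CDKB2;1 at 37.9 ± 2.8, whose libraries overlapped. CYCD2;1 at 25.5 ± 0.52 was the most abundant D-type cyclin and CYCB1;2 at 25.2 ± 1.1 the most abundant B-type cyclin. The A-type cyclins were led by CYCA3;2 at 20.1 ± 1.3 and the inhibitors by KRP2 at 18.3 ± 1.7, about the level of the kinase CDKB1;1 at 19.0 ± 0.84. KRP5, the next inhibitor, was at 9.13 ± 1.2, and its 3 libraries did not overlap with those of KRP2.

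Lowest among the genes with reads were CYCA1;2 at 0.477 ± 0.11 and CYCD6;1 at 0.390 ± 0.098 CPM per kb. The first of them, a cyclin known for its part in meiosis, had 32 to 86 reads in a library. CYCD6;1 (AT4G03270), known for the formative division that separates root cortex and endodermis, had 10 to 55. Its locus overlaps another gene, as given below. CYCD7;1 (AT5G02110), without a read here, is known from the division that forms the stomatal guard cells. All levels per length use exon lengths of the TAIR10.1 annotation, since the authors' annotation is not given in the sources used here.

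**Figure D1:**
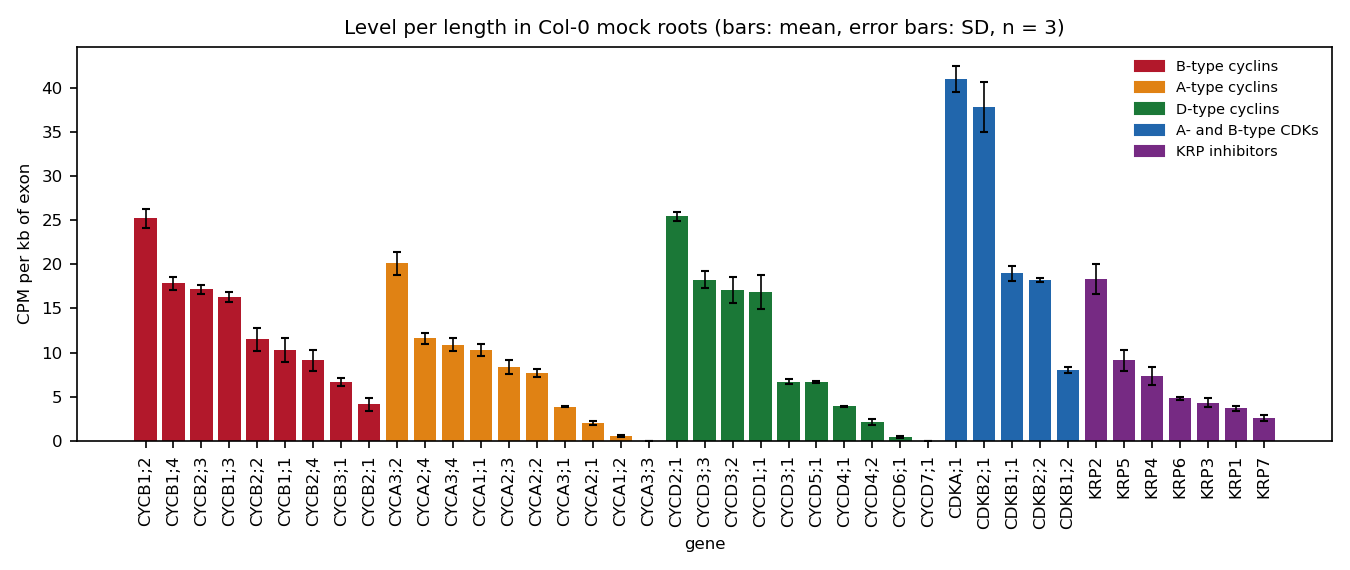
Level of each of the 41 genes in Col-0 mock roots, in CPM per kb of exon, ordered within its class, where bars are means and error bars SDs of 3 libraries. CDKA;1 and CDKB2;1 stood highest, at 41.1 and 37.9 CPM per kb, and CYCA3;3 and CYCD7;1 were at 0.

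The response to ABA was small and went in both directions. Averaged over the 3 genotypes, 12 of the 39 genes were higher in ABA than in mock and 6 were lower, which is 46.2% of them. Among all 20869 genes tested 53.2% passed, with 28.7% higher and 24.5% lower. The averaged counts by class and by list below stand beside these shares where library sizes were scaled. A gene is called here when its adjusted p is under 0.05 in edgeR's quasi-likelihood test, with Benjamini-Hochberg adjustment over all genes tested. The median size of the change was 0.14 on the log2 scale for the 39 genes and 0.20 for all genes. None of the 39 had a fitted change of at least 2-fold, called or not. Among all genes 9.86% were both called and changed at least 2-fold in the averaged comparison. These shares were 8.86% in vnd123, 9.26% in vnd7 and 9.14% in Col-0. In bulk roots, fewer cells of a type and less RNA per cell cannot be told apart.

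The genes that were lower in ABA were CYCD2;1, CYCD3;1, CYCD3;2, CYCA2;2, CDKA;1 and KRP2. Higher were CYCD5;1, CYCA1;1, CYCA1;2, CYCA3;1, CYCB1;1, CYCB1;2, CYCB1;4, CYCB3;1, CDKB1;1, CDKB2;1, CDKB2;2 and KRP1. All 6 lower calls held whether or not library sizes were scaled. Without scaling, the median of all genes moved by -0.08, with 4510 higher and 7346 lower of all 20869 genes tested. Averaged counts without scaling, by class and by list below, stand beside these numbers. The cell cycle genes then had 6 higher and 9 lower calls, so that lower calls outnumbered higher ones, as they did among all genes. The 3 added lower calls were CYCA3;2, CYCA3;4 and KRP4. Of the 12 higher calls 6 were left, those of CYCD5;1, CYCA1;1, CYCA1;2, CYCB1;4, CDKB1;1 and KRP1. Without the library Col-0 ABA 2 the count of higher genes was 8.

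In single genotypes fewer genes passed. In vnd123, 5 genes were higher and 4 lower in ABA, 23.1% of the 39, against 32.4% of all genes tested (18.6% higher and 13.8% lower). For vnd7 the counts were 3 higher and 4 lower, 17.9% of the 39, against 33.3% of all genes (18.8% higher and 14.5% lower). Col-0 had 4 higher and 3 lower, 17.9% of the 39, against 31.3% of all genes (17.9% higher and 13.4% lower). At least 1 genotype passed for 12 of the 39, which is 30.8%, and for 44.3% of all genes. CYCD2;1, CYCD5;1 and KRP2 passed in each genotype, 7.69% of the 39 against 22.3% of all genes. The direction was the same in the 3 genotypes for 28 of the 39 genes, 71.8%, and for 71.6% of all genes.

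**Figure D2:**
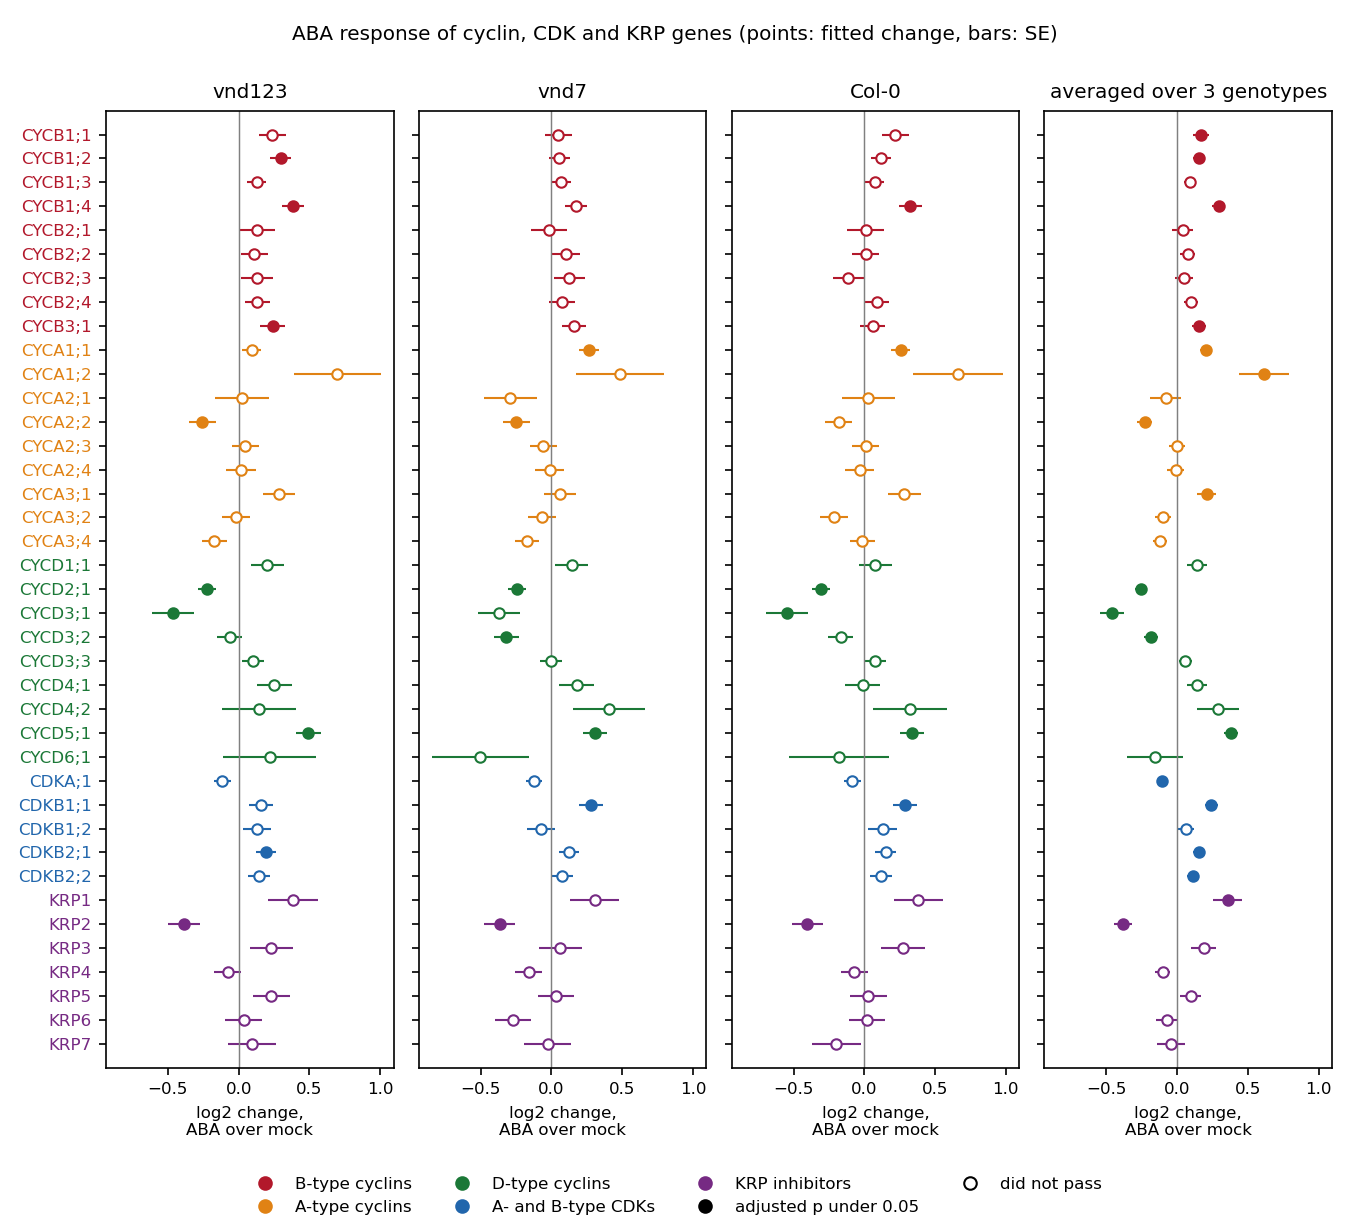
Log2 change of the 39 tested genes, ABA over mock, in vnd123, vnd7 and Col-0 and averaged over them, where points are fitted changes, bars their SE, and filled points passed at an adjusted p under 0.05. In the averaged panel changes ran between -0.46 for CYCD3;1 and 0.61 for CYCA1;2.

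The D-type cyclins, which carry outside signals into the cell cycle, split into 3 lower genes, 1 higher gene and 5 that did not pass, with a median log2 change of 0.06. CYCD2;1 (AT2G22490), a cyclin known from work on lateral root formation together with KRP2, fell in each genotype. In vnd123 it had 40.1, 38.6 and 41 CPM in ABA, against 43.7, 48.5 and 47.7 CPM in mock. vnd7 roots had 38.1, 37.4 and 37.2 CPM of it in ABA and 42.8, 45.5 and 44.8 CPM in mock. Col-0 roots had 33.6, 35.6 and 38.4 CPM in ABA and 43.8, 43.9 and 45.4 CPM in mock. All 9 ABA libraries lay below all 9 mock libraries, which held for 8.3% of all genes. Of the 39, 3 genes had no overlap between the 9 ABA and 9 mock libraries in either direction, against 20.4% of all genes. For 3 against 3 libraries, as compared within a genotype or between genotypes below, the share of all genes without overlap was not counted. The averaged log2 change was -0.26 ± 0.04 (SE), with an adjusted p of 5.78e-06.

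CYCD3;1 (AT4G34160), the cyclin that answers to cytokinin, had the largest fitted decrease of the 39 genes. It was at 9.10, 9.79 and 7.28 CPM in vnd123 ABA and 10.5, 13.8 and 11.8 CPM in vnd123 mock. The values in vnd7 were 10.2, 6.99 and 10.5 CPM in ABA and 10.5, 12.4 and 13.1 CPM in mock. In Col-0 they were 8.66, 7.57 and 9.5 CPM in ABA and 12.4, 13.1 and 12.1 CPM in mock. ABA and mock libraries were apart in vnd123 and Col-0 and overlapped in vnd7. The averaged log2 change was -0.46 ± 0.09, with an adjusted p of 0.00015. It passed in vnd123 (adjusted p = 0.0225) and Col-0 (0.00845) but not in vnd7 (0.0602), and the vnd123 call was lost without vnd123 ABA 3 (0.102) or vnd123 mock 2 (0.119). CYCD3;1 overlaps the same-strand neighbour AT4G34150 by 40 bases in TAIR10.1, and that neighbour was higher in ABA by 0.22 ± 0.05. The part of shared reads in the change of CYCD3;1 was not tested.

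CYCD3;2 (AT5G67260), its close relative, was at 23.6, 23.9 and 29.2 CPM in vnd123 ABA and 25.7, 26.0 and 28.4 CPM in vnd123 mock. In vnd7 it had 24.2, 22.3 and 24.9 CPM in ABA and 28.1, 30.6 and 30.4 CPM in mock. Col-0 showed 24.7, 26.5 and 25.8 CPM in ABA and 28.5, 31.4 and 26.4 CPM in mock. The groups were apart in vnd7 and overlapped in vnd123 and Col-0. Averaged over genotypes the change was -0.18 ± 0.05 with an adjusted p of 0.00467. It passed in vnd7 (-0.32 ± 0.09, adjusted p = 0.00711), and the difference of the vnd7 change from that in Col-0 did not pass (-0.15 ± 0.12, adjusted p = 0.997).

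CYCD5;1 (AT4G37630), a cyclin linked to the amount of endoreduplication (DNA replication without division), rose in each genotype. In vnd123 it had 15.8, 15.4 and 18.6 CPM in ABA and 11.1, 12.2 and 12 CPM in mock. In vnd7 the values were 14.2, 15.2 and 15.1 CPM in ABA and 11.5, 12.8 and 11.6 CPM in mock. Col-0 had 15.3, 15.1 and 16.6 CPM in ABA and 12.1, 12.5 and 12.5 CPM in mock. It was the 1 gene of the 39 whose 9 ABA libraries all lay above all 9 mock libraries, which 12.1% of all genes did. Its averaged change of 0.38 ± 0.05 had the smallest adjusted p of the 39, 1.97e-06. Without scaling of library sizes, the change in vnd7 alone missed the threshold (adjusted p = 0.0547).

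The other D-type cyclins did not pass in the averaged comparison. CYCD1;1 had a fitted change of 0.14 ± 0.07 (adjusted p = 0.0876), CYCD4;1, known from the pericycle, one of 0.14 ± 0.07 (0.106) and CYCD4;2 one of 0.29 ± 0.15 (0.109). CYCD3;3, the third gene of its subgroup, had a change of 0.06 ± 0.04, with a 95% interval of -0.03 to 0.15 that holds neither of the fitted decreases of its 2 relatives. CYCD6;1 had -0.15 ± 0.20, an interval of -0.57 to 0.26. Its locus overlaps AT4G03260 on the opposite strand by 847 bases in TAIR10.1. That partner was at 142 CPM. Since the kit does not mark strand, reads from the overlapped stretch cannot be assigned to either gene by strand. How far this moved the count of the cyclin was not tested.

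**Figure D3:**
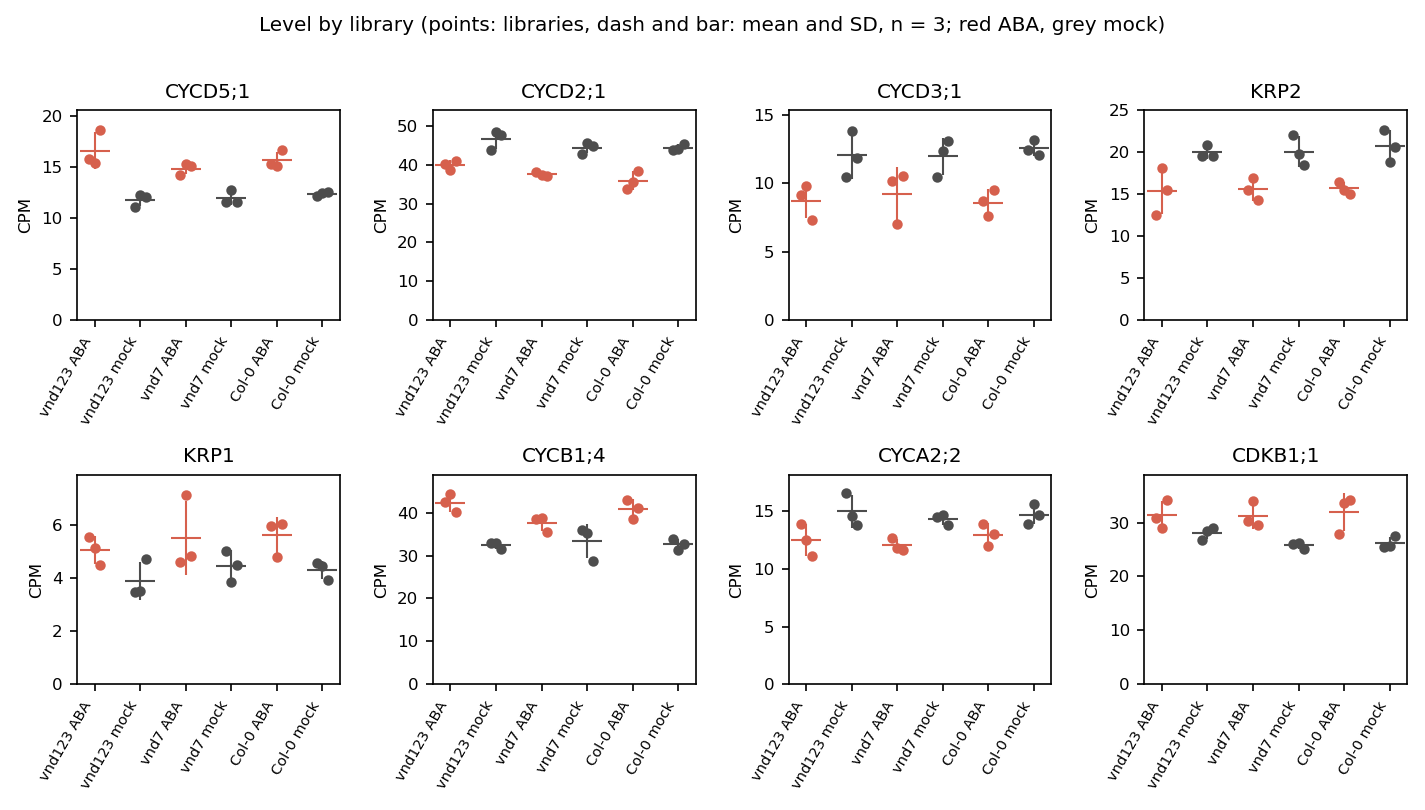
CPM of 8 of the genes in each library, with ABA in red and mock in grey for vnd123, vnd7 and Col-0. Points are libraries, dashes and bars means and SDs of 3. For CYCD5;1 all 9 ABA libraries lay above the mock libraries, and for CYCD2;1 and KRP2 all 9 lay below.

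Of the 9 tested A-type cyclins 3 were higher, 1 was lower and 5 did not pass, with a median log2 change of -0.01. Without scaling 2 were higher and 3 lower, with a median of -0.09. CYCA1;1 (AT1G44110), which is active in mitosis, rose. It was at 21.1, 20.3 and 19.8 CPM in vnd123 ABA and 19.7, 19.0 and 18.9 CPM in vnd123 mock. In vnd7 it had 21.1, 22.2 and 21.8 CPM in ABA and 17.6, 19.0 and 17.5 CPM in mock. The Col-0 values were 22.8, 21.7 and 22.8 CPM in ABA and 18.3, 20.2 and 17.7 CPM in mock. ABA libraries were above mock in each genotype, narrowly so in vnd123. Over the 3 genotypes it changed by 0.20 ± 0.04 (adjusted p = 0.000221), and 0.13 without scaling. In vnd7 (adjusted p = 0.00507) and Col-0 (0.00683) the gene passed, in vnd123 it did not (0.342). Without scaling neither single call was left (0.0608 in vnd7 and 0.0601 in Col-0). A fit of only the groups compared also lost the Col-0 call (0.0673).

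CYCA1;2 (AT1G77390) had few reads and the largest fitted increase of the 39. It stood at 1.11, 2.22 and 1.52 CPM in vnd123 ABA and 0.659, 1.25 and 1.05 CPM in vnd123 mock. In vnd7 the levels were 1.32, 0.921 and 1.37 CPM in ABA and 1.06, 0.633 and 0.885 CPM in mock. In Col-0 they were 1.44, 1.32 and 1.16 CPM in ABA and 0.785, 0.657 and 1.03 CPM in mock. The groups were apart in Col-0 and overlapped in both mutants. The fitted change, averaged, was 0.61 ± 0.18 with an adjusted p of 0.00717, and no single genotype passed.

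CYCA2;2 (AT5G11300) was the A-type cyclin that fell. Its subgroup, the A2 cyclins, is known to hold back endoreduplication. It had 13.9, 12.5 and 11.1 CPM in vnd123 ABA and 16.6, 14.6 and 13.8 CPM in vnd123 mock. In vnd7 it had 12.7, 11.8 and 11.7 CPM in ABA and 14.5, 14.7 and 13.8 CPM in mock. Col-0 libraries gave 13.9, 12 and 13.0 CPM in ABA and 13.9, 15.6 and 14.7 CPM in mock. ABA was below mock without overlap in vnd7, and the groups met or overlapped in vnd123 and Col-0. Its averaged change was -0.23 ± 0.05 (adjusted p = 0.00159). The single calls were close to the threshold. The one in vnd123 (adjusted p = 0.0452) was lost, at 0.0508 to 0.225, without any one of vnd123 ABA 2 or 3, vnd123 mock 1 or 2, vnd7 ABA 1 or 3, vnd7 mock 1 and Col-0 mock 2 or 3. The one in vnd7 (0.0496) was lost, at 0.0508 to 0.134, without any one of the vnd7 ABA or Col-0 mock libraries, vnd7 mock 1 or 2 and vnd123 mock 2 or 3. With no filter on low counts both were lost (0.0508 in vnd123 and 0.0537 in vnd7). A fit of only the groups compared also lost the vnd123 call (0.0922).

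The other 3 A2 cyclins had averaged changes close to 0 and did not pass. The interval of CYCA2;3 ran from -0.12 to 0.11, that of CYCA2;4 from -0.14 to 0.11 and that of CYCA2;1 from -0.31 to 0.15. Among the A3 cyclins, which act around DNA replication, CYCA3;1 (AT5G43080) rose. It had 6.88, 6.44 and 7.05 CPM in vnd123 ABA and 6.18, 5.63 and 4.91 CPM in vnd123 mock. In vnd7 it had 5.82, 5.71 and 6.84 CPM in ABA and 5.54, 5.73 and 6.35 CPM in mock. Its Col-0 values were 6.59, 7.84 and 7.68 CPM in ABA and 5.97, 6.20 and 6.0 CPM in mock. ABA and mock were apart in vnd123 and Col-0 and overlapped in vnd7. On average over genotypes the change was 0.21 ± 0.07 (adjusted p = 0.0124). The call was lost without Col-0 ABA 2 (0.0516) and without scaling (0.0989). CYCA3;2 (-0.10 ± 0.06, adjusted p = 0.145) and CYCA3;4 (-0.12 ± 0.05, adjusted p = 0.0525) did not pass. Without scaling both were called lower, CYCA3;2 at -0.18 (adjusted p = 0.0101) and CYCA3;4 at -0.20 (0.00226), and with DESeq2 the second of them was too (-0.14, 0.0233).

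Of the 9 B-type cyclins, the mitotic cyclins, 4 were higher in ABA, none was lower and 5 did not pass. Among all genes 28.7% were higher and 24.5% lower. The median log2 change was 0.10. All 9 fitted changes were positive, while without scaling of library sizes 6 of 9 were and 1 passed. Without the library Col-0 ABA 2, 2 passed. Summed over the class, the level was 131 ± 2.4 CPM per kb in vnd123 ABA and 112 ± 5.8 in vnd123 mock, 124 ± 2.5 in vnd7 ABA and 116 ± 5.6 in vnd7 mock, and 127 ± 2.0 in Col-0 ABA and 118 ± 4.0 in Col-0 mock (SD, n = 3).

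CYCB1;4 (AT2G26760) rose most of these. It had 42.5, 44.4 and 40.2 CPM in vnd123 ABA and 33.0, 32.8 and 31.5 CPM in vnd123 mock. The vnd7 libraries had 38.6, 38.7 and 35.4 CPM in ABA and 36.0, 35.2 and 28.7 CPM in mock. In Col-0 the gene was at 43.0, 38.6 and 41.1 CPM in ABA and 33.9, 31.3 and 32.6 CPM in mock. The groups were apart in vnd123 and Col-0, and in vnd7 the lowest ABA library lay below the highest mock library. Averaged, the log2 change was 0.29 ± 0.05 with an adjusted p of 1.84e-05. It passed in vnd123 (0.38 ± 0.08, adjusted p = 0.000814) and Col-0 (0.33 ± 0.08, 0.00332) but not in vnd7 (0.17 ± 0.08, 0.103). The vnd7 change did not differ from that in Col-0 beyond the threshold for any gene tested.

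CYCB1;2 (AT5G06150), the most abundant B-type cyclin, had 52.0, 45.3 and 53.1 CPM in vnd123 ABA and 41.9, 42.6 and 37.9 CPM in vnd123 mock. In vnd7 it was at 47.3, 44.4 and 45.9 CPM in ABA and 42.9, 45.7 and 43.8 CPM in mock. The values of Col-0 were 48.4, 53.4 and 48.4 CPM in ABA and 44.7, 45.1 and 48.4 CPM in mock. The groups were apart in vnd123 and overlapped in vnd7 and Col-0. The mean change over genotypes was 0.16 ± 0.04 (adjusted p = 0.00359), and 0.08 without scaling, where the call was lost (0.117). In vnd123 alone it was 0.30 ± 0.07 (adjusted p = 0.00348), and the difference of that change from the one in Col-0 did not pass (0.18 ± 0.10, adjusted p = 1).

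CYCB3;1 (AT1G16330) was at 15.9, 16.0 and 14.6 CPM in vnd123 ABA and 12.7, 13.6 and 13.0 CPM in vnd123 mock. In vnd7 its levels were 15.8, 15.9 and 16.3 CPM in ABA and 13.9, 15.2 and 13.8 CPM in mock. Col-0 had 13.7, 15.7 and 12.6 CPM in ABA and 12.5, 13.3 and 14.4 CPM in mock. Both mutants had their ABA libraries above mock, and in Col-0 the groups overlapped. The averaged log2 change was 0.15 ± 0.05 (adjusted p = 0.0147). It was lost without Col-0 ABA 2 (0.10, adjusted p = 0.113), vnd123 ABA 2 (0.081), vnd7 ABA 2 (0.0606) or vnd7 mock 3 (0.0597), and without scaling (0.216). The call in vnd123 alone (0.24 ± 0.09, adjusted p = 0.041) was lost, at 0.0502 to 0.18, without any one of 13 libraries. It was kept without Col-0 ABA 2, Col-0 mock 1 or 3, vnd7 ABA 3 or vnd7 mock 1. DESeq2 (0.0573), its size factors in edgeR (0.0638) and unscaled library sizes (0.148) also lost it. So did no filter on low counts (0.0959), a stricter filter (0.0591) and a fit of only the groups compared (0.0885).

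CYCB1;1 (AT4G37490), the mitotic cyclin that is also raised after DNA damage, was the fourth gene to pass. It averaged 18.6 ± 1.1 CPM in vnd123 ABA and 15.7 ± 1.7 in vnd123 mock, 17.6 ± 0.92 in vnd7 ABA and 17.0 ± 0.88 in vnd7 mock, and 19.6 ± 0.43 in Col-0 ABA and 16.8 ± 2.3 in Col-0 mock (SD, n = 3). The averaged change of 0.17 ± 0.06 (adjusted p = 0.015) lost its call without Col-0 ABA 2 (0.0568), Col-0 ABA 3 (0.0541) or vnd123 ABA 3 (0.0696), and without scaling (0.176). CYCB1;3 (0.09 ± 0.04, adjusted p = 0.065) and the 4 B2 cyclins did not pass. The 95% intervals of the B2 genes lay between -0.12 and 0.21.

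Among the 5 CDKs 3 were higher and 1 was lower, and without scaling 1 was higher and 1 lower. CDKA;1 (AT3G48750), the kinase that carries the cycle at its start and into mitosis, fell slightly. It had 58.8, 55.8 and 59.8 CPM in vnd123 ABA and 63.3, 61.6 and 63.8 CPM in vnd123 mock. In vnd7 it had 53.1, 58.9 and 57.2 CPM in ABA and 63.6, 61.1 and 59.4 CPM in mock. The Col-0 libraries had 56.2, 59.7 and 58.2 CPM in ABA and 62.2, 63.4 and 59 CPM in mock. ABA was below mock in both mutants, and 1 library overlapped in Col-0. Averaged over genotypes the change was -0.11 ± 0.03 (adjusted p = 0.0132), and -0.18 without scaling, and no single genotype passed.

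Of the 4 B-type kinases, which are made around mitosis, 3 were higher and 1 did not pass. CDKB1;1 (AT3G54180), which acts with A2 cyclins to hold back endoreduplication, had 30.9, 29.0 and 34.1 CPM in vnd123 ABA and 26.7, 28.4 and 28.9 CPM in vnd123 mock. In vnd7 the kinase had 30.3, 34.0 and 29.5 CPM in ABA and 26.0, 26.2 and 25 CPM in mock. Levels in Col-0 were 27.9, 33.7 and 34.2 CPM in ABA and 25.5, 25.6 and 27.5 CPM in mock. In each genotype the ABA libraries lay above the mock libraries, only narrowly in vnd123, where the nearest were at 29.0 and 28.9 CPM. Over the 3 genotypes it changed by 0.24 ± 0.05 (adjusted p = 0.000309). The call in vnd7 (adjusted p = 0.0142) was lost without vnd7 ABA 2 (0.123) or vnd7 mock 3 (0.0708) and without scaling (0.0818). The call in Col-0 (adjusted p = 0.0131) was lost without Col-0 ABA 2 (0.102), Col-0 ABA 3 (0.105) or Col-0 mock 2 (0.0512) and without scaling (0.0612). A fit of only the groups compared lost it as well (0.0528). CDKB1;1 overlaps AT3G54190 on the opposite strand by 71 bases, and the fitted change of that gene was -0.02 ± 0.03.

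CDKB2;1 (AT1G76540) was at 62.2, 55.6 and 55.7 CPM in vnd123 ABA and 51.1, 52.9 and 47.5 CPM in vnd123 mock. In vnd7 this kinase had 52.0, 56.7 and 53.8 CPM in ABA and 51.5, 51.1 and 46.6 CPM in mock. In Col-0 it had 56.8, 57.4 and 58.2 CPM in ABA and 56.0, 51.1 and 48.3 CPM in mock. Within each genotype all ABA libraries were above mock, by under 1 CPM at the nearest in vnd7 and Col-0. The fitted change, averaged, was 0.16 ± 0.04 (adjusted p = 0.00319), and 0.08 without scaling, where the call was lost (0.104). The call in vnd123 alone (0.20 ± 0.07, adjusted p = 0.041) was lost, at 0.0516 to 0.191, without any one of 12 libraries. It was kept without vnd123 mock 2, vnd7 ABA 1 or 3, vnd7 mock 1 and Col-0 mock 1 or 3. DESeq2 (0.0537), its size factors in edgeR (0.0654) and unscaled library sizes (0.176) also lost the vnd123 call. So did no filter on low counts (0.0871), a stricter filter (0.0552) and a fit of only the groups compared (0.112).

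CDKB2;2 (AT1G20930) averaged 26.3 ± 1.7 CPM in vnd123 ABA and 23.7 ± 1.7 in vnd123 mock, 26.5 ± 2.5 in vnd7 ABA and 25.2 ± 0.68 in vnd7 mock, and 27.6 ± 0.74 in Col-0 ABA and 25.4 ± 0.31 in Col-0 mock. Its change of 0.11 ± 0.04 was the weakest call of the 18, with an adjusted p of 0.0391. The call was lost under every alternative scaling and filter tried, with DESeq2 (0.0766) and without any one of 14 libraries (0.0537 to 0.183). It was kept without vnd123 ABA 1, vnd123 mock 2, vnd7 ABA 3 or vnd7 mock 1. CDKB1;2 did not pass, with a change of 0.06 ± 0.06 and an interval of -0.06 to 0.18.

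The 7 KRPs, the inhibitors, gave 1 higher gene, 1 lower gene and 5 that did not pass. KRP2 (AT3G50630), the most abundant of them and an inhibitor known to restrain the pericycle divisions that start lateral roots, fell in each genotype. In vnd123 KRP2 had 12.6, 18.1 and 15.4 CPM in ABA and 19.6, 20.9 and 19.5 CPM in mock. In vnd7 KRP2 stood at 15.5, 17.0 and 14.3 CPM in ABA and 22.0, 19.7 and 18.4 CPM in mock. In Col-0 it stood at 16.5, 15.5 and 15.1 CPM in ABA and 22.6, 18.9 and 20.7 CPM in mock. All 9 ABA libraries were below all 9 mock libraries, the nearest at 18.1 and 18.4 CPM. Its averaged change was -0.38 ± 0.06 with an adjusted p of 4.48e-05. Single changes were -0.38 ± 0.11 in vnd123 (adjusted p = 0.012), -0.37 ± 0.11 in vnd7 (0.0146) and -0.40 ± 0.11 in Col-0 (0.00902). In vnd123 the call was lost without vnd123 ABA 1 (-0.25, adjusted p = 0.0848), and in vnd7 without vnd7 ABA 3 (0.0712) or vnd7 mock 1 (0.075).

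KRP1 (AT2G23430), an inhibitor reported to be induced by ABA in seedlings, rose in the averaged comparison. It was at 5.55, 5.15 and 4.49 CPM in vnd123 ABA and 3.47, 3.50 and 4.71 CPM in vnd123 mock. In vnd7 KRP1 had 4.59, 7.12 and 4.83 CPM in ABA and 5.03, 3.85 and 4.51 CPM in mock. In Col-0 KRP1 was at 5.98, 4.81 and 6.03 CPM in ABA and 4.56, 4.45 and 3.92 CPM in mock. The groups were apart in Col-0 and overlapped in both mutants, and vnd7 ABA 2 was the highest library of all. On average over genotypes the change was 0.36 ± 0.10 (adjusted p = 0.00582), and no single genotype passed.

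KRP3 (0.19 ± 0.09, adjusted p = 0.0784), KRP4 (-0.10 ± 0.05, 0.127) and KRP5 (0.10 ± 0.08, 0.294) did not pass, nor did KRP6 (-0.07 ± 0.07, 0.421) and KRP7 (-0.04 ± 0.10, 0.732). Without scaling KRP4 was called lower (-0.18, adjusted p = 0.00726). KRP4 overlaps AT2G32720 on the opposite strand by 926 bases, a partner at 76.4 CPM. Summed over the 7 KRPs, the level was 46.9 ± 4.0 CPM per kb in vnd123 ABA and 47.8 ± 1.5 in vnd123 mock, 44.6 ± 3.8 in vnd7 ABA and 49.1 ± 2.8 in vnd7 mock, and 47.3 ± 1.8 in Col-0 ABA and 50.2 ± 2.2 in Col-0 mock. These sums overlapped between ABA and mock in each genotype.

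The mutants were then compared with Col-0, to see whether the loss of VND factors moved these genes. None of the 39 passed in any of the 4 comparisons with edgeR, nor with DESeq2. Among all genes 1.09% passed for vnd123 against Col-0 in ABA, 0.609% for vnd123 in mock, 0.163% for vnd7 in ABA and 0.0671% for vnd7 in mock. At an unadjusted p under 0.05 there were 2 of the 39 for vnd123 in ABA, with 10.3% of all genes, and 1 for vnd123 in mock, with 6.48%. For vnd7 there were 4 in ABA, with 12.8% of all genes, and 1 in mock, with 4.87%. The median SE of a difference was 0.10 on the log2 scale, and the 95% intervals of the 39 genes reached at most from -0.82 to 1.59 over these comparisons.

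A different gene had the smallest p-value in each of the 4 comparisons. CYCD6;1 had 0.906, 0.876 and 1.27 CPM in vnd123 ABA and 0.633, 0.270 and 0.746 CPM in Col-0 ABA, a difference of 0.86 ± 0.35 with an adjusted p of 0.353 and an interval of 0.14 to 1.59. The libraries did not overlap, but the difference was 0.57 without Col-0 ABA 2. KRP3 had 4.73, 4.56 and 4.89 CPM in vnd7 ABA and 5.60, 6.08 and 7.06 CPM in Col-0 ABA, a difference of -0.40 ± 0.15 (adjusted p = 0.313). KRP6 had 10.7, 7.50 and 8.28 CPM in vnd7 mock and 7.56, 7.20 and 7.03 CPM in Col-0 mock, a difference of 0.28 ± 0.13 (adjusted p = 0.947) that was 0.12 without vnd7 mock 1. CYCB1;2 differed by -0.17 ± 0.07 between vnd123 mock and Col-0 mock (adjusted p = 0.63).

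**Figure D4:**
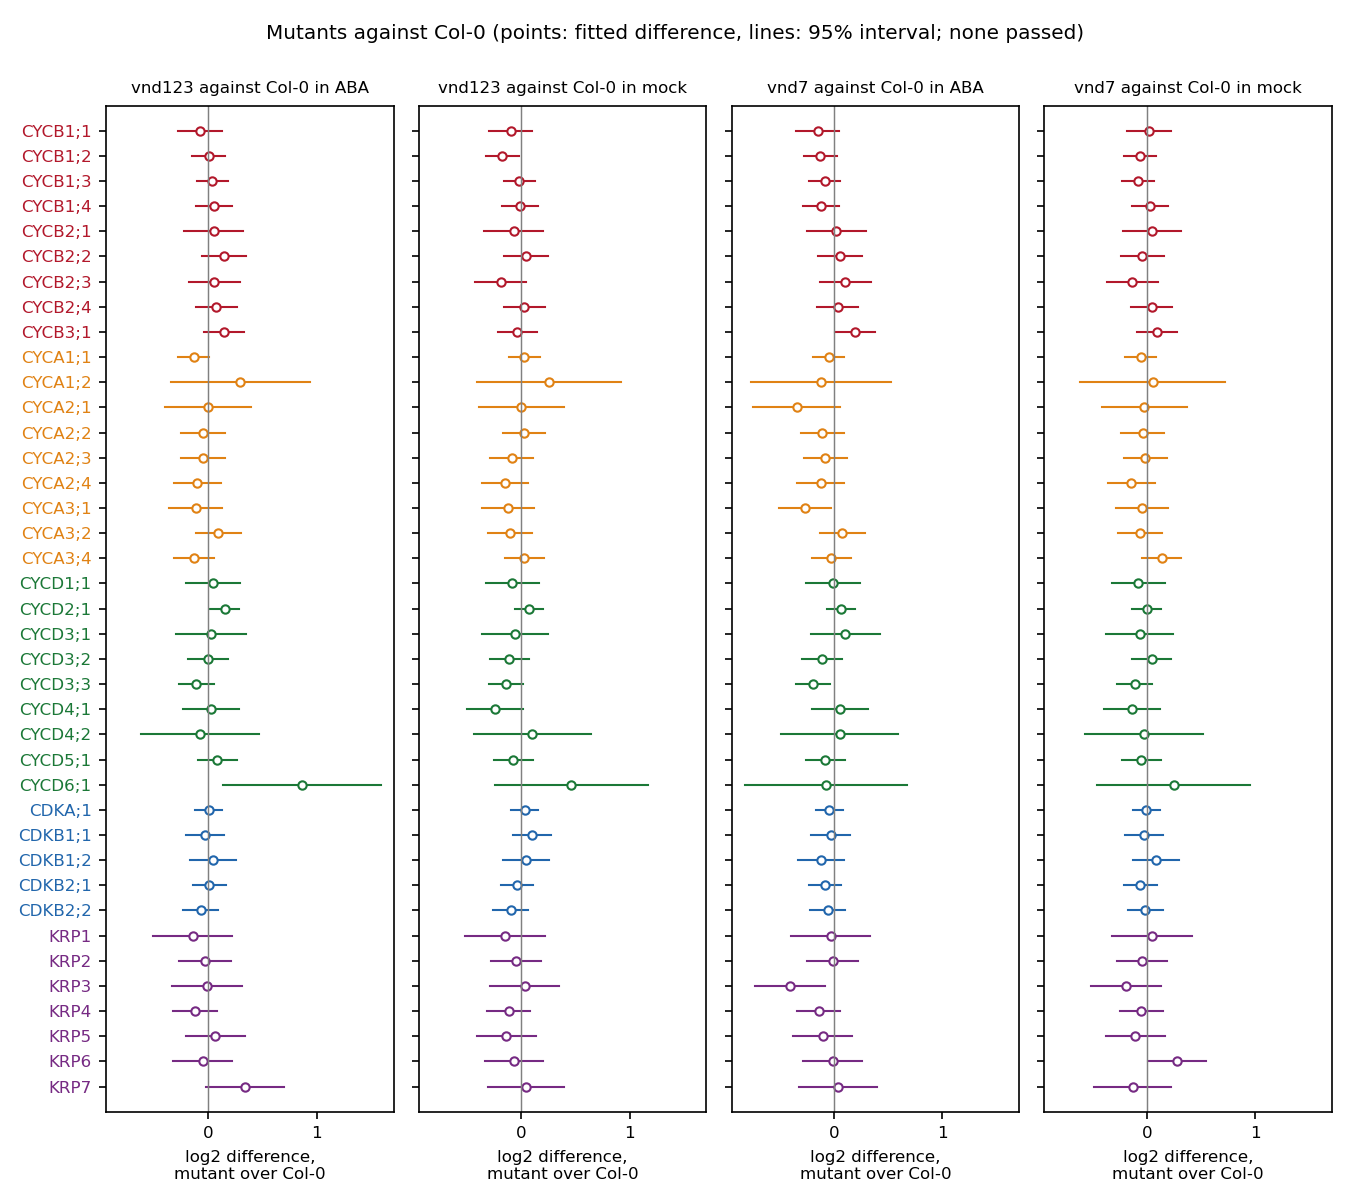
Log2 difference of the 39 tested genes between each mutant and Col-0, in ABA and in mock, where points are fitted differences and lines their 95% intervals. None passed at an adjusted p under 0.05, and the widest intervals belong to CYCD6;1 and CYCA1;2, the genes with the fewest reads.

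Whether ABA acted differently in a mutant was tested as the interaction. No gene of the 39 and 0% of all genes passed for vnd123 or for vnd7 with edgeR. DESeq2 called 6 of all genes for vnd123 and 0 for vnd7, and none of the 39. At an unadjusted p under 0.05 there were 0 of the 39 for either mutant, against 3.58% and 4% of all genes. The smallest p-values were those of CYCB1;2 for vnd123 (0.18 ± 0.10) and KRP6 for vnd7 (-0.29, and -0.13 without vnd7 mock 1). The 95% intervals of these interactions reached from -0.95 to 1.41 for vnd123 and from -1.35 to 0.84 for vnd7. The median SE of an interaction was 0.14 on the log2 scale for either mutant, close to the median ABA change of 0.14. A difference in response of that size would therefore not be detectable for a typical gene of the 39, and still less for those with few reads.

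The spread of the genes around their group means was then compared between pairs of genes. Over the 18 libraries, the median correlation of log2 CPM deviations was 0.15 for pairs of B-type cyclins, 0.15 for D-type cyclins, 0.15 for KRPs, 0.06 for CDKs and 0.03 for A-type cyclins. Pairs among the B- and A1-type cyclins and B-type CDKs, the mitotic genes, had a median of 0.08 over 105 pairs. The other tested genes had a median of 0.10 over 276 pairs, and pairs between both sets -0.02 over 360. Single pairs ran from -0.70 to 0.68 among the mitotic genes and from -0.78 to 0.83 among the others. These are descriptions without a test, in which all points share library, depth and scaling.

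The genes around this core were read from lists of known cell cycle partners. The P-type cyclins, named for their likeness to a yeast cyclin of phosphate signalling, held the largest changes among the cyclins. CYCP4;2 was at 13.6 to 17.3 CPM (median 14.2) in the 9 ABA libraries and 1.70 to 3.32 CPM (median 2.34) in the 9 mock libraries, a log2 change of 2.62 ± 0.11 (adjusted p = 1.22e-13). CYCP4;3 was at 6.52 to 9.53 CPM in ABA and 1.18 to 2.27 CPM in mock, a change of 2.21 ± 0.14. CYCP1;1 changed by 0.59 ± 0.04. For each of these 3 all ABA libraries lay above all mock libraries. Of the 8 tested genes in the list of other cyclins, 4 were higher and 2 lower in ABA, with a median of 0.08.

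SIAMESE and its relatives, inhibitors that favour endoreduplication, had 3 higher and 1 lower of 13 tested, with a median of 0.05. SIM itself fell by 0.40 ± 0.10 on the log2 scale (adjusted p = 0.00199), at 8.33 to 13.3 CPM in ABA and 10.6 to 18.7 CPM in mock. The list's loci AT5G02420 (0.80 ± 0.06) and AT2G28870 (0.88 ± 0.14), which have no symbol in the reference, rose. Of the RBR, E2F and DP factors, which link D-type cyclins to replication genes, 2 of 9 were higher and none lower. DPA, an E2F partner, changed by 0.17 ± 0.05, and DEL1, an atypical E2F, by 0.18 ± 0.06. Without scaling neither passed, and 1 of the 9 was lower. DEL1 also lost its call without any one of vnd123 ABA 1 or 3, vnd7 ABA 2, vnd7 mock 2 or 3, Col-0 ABA 1 or 3 and Col-0 mock 2 (0.0528 to 0.101).

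Of 20 DNA replication genes 9 were higher and 1 was lower, with a median of 0.14, and without scaling 5 were higher and 2 lower. PCNA1, the sliding clamp of the replication fork, was at 41.8 to 51.0 CPM in ABA and 32.4 to 39.7 CPM in mock, a change of 0.33 ± 0.05 (adjusted p = 4.42e-06). RNR2A, a subunit of the enzyme that makes deoxynucleotides, changed by 0.41 ± 0.06 and the licensing factor CDT1B by 0.33 ± 0.07. Of the MCM helicase genes, MCM7 (0.17 ± 0.04) passed and MCM2, MCM3, MCM4, MCM5 and MCM6 did not.

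Of 17 mitosis and cytokinesis genes 8 were higher and none was lower, with a median of 0.11, and without scaling 4 were higher and 2 lower. KNOLLE, the syntaxin of the cell plate, was at 41.9 to 51.8 CPM in ABA and 35.9 to 40.2 CPM in mock, a change of 0.26 ± 0.04 (adjusted p = 1.18e-05). The Aurora kinase AUR2 changed by 0.36 ± 0.05 and the microtubule protein MAP65-3 by 0.20 ± 0.04. The counts with scaling stand beside 28.7% higher and 24.5% lower among all genes. Those without scaling stand beside 4510 higher and 7346 lower of all 20869 genes tested.

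Of 9 activators and inhibitors of the anaphase-promoting complex, which marks mitotic cyclins for breakdown, 2 were higher and 1 lower. Without scaling 0 were higher and 2 lower. OSD1, an inhibitor of that complex, changed by -0.26 ± 0.06 and the activator CDC20.1 by 0.17 ± 0.04, a call lost without scaling (0.0955) and one on a gene whose count is uncertain, since it may share reads with its near-copy CDC20.2. CCS52B, another activator, passed at 0.13 ± 0.04 and lost its call without Col-0 ABA 2 or 3, vnd123 ABA 2, vnd7 ABA 2 or vnd7 mock 3 (0.0575 to 0.0772) and without scaling (0.291). Of 8 genes of the MYB3R factors and their partners, which control mitotic genes, TSO1 (-0.17 ± 0.04) was the 1 to pass. Without scaling 4 of these 8 were lower and 0 higher, beside 7346 lower and 4510 higher of all 20869 genes tested. Of 8 CDK-activating kinases, docking subunits and WEE1, the docking subunit CKS1 (0.21 ± 0.05) was the 1 to pass. Without scaling 1 of them was higher and 1 lower.

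Markers of DNA damage and of lateral root founding included larger changes. PARP2, a poly(ADP-ribose) polymerase raised after DNA damage, changed by 0.70 ± 0.05, while GMI1, another damage gene, changed by -0.56 ± 0.13, and SOG1 and BRCA1 did not pass. GATA23, which marks pericycle cells that become lateral root founders, was at 0.216 to 0.961 CPM in ABA and 1.12 to 2.13 CPM in mock, a change of -1.62 ± 0.17 (adjusted p = 8.76e-08), with all ABA libraries below all mock libraries. LBD29, a lateral root factor downstream of auxin, changed by -0.72 ± 0.13 and LBD33 by 1.28 ± 0.23. Of the 8 genes of that list 2 were higher and 2 lower, beside 28.7% and 24.5% of all genes. Without scaling 1 was higher and 4 were lower, beside 4510 and 7346 of all 20869 genes tested. The meristem factors PLT1, PLT2 and WOX5 did not pass with scaling. The 4 ABA check genes RD29B, RAB18, HAI1 and ABI1 were all higher, by 1.99 ± 0.05 for the smallest change, that of ABI1. Of the VND genes, VND2, VND3 and VND7 were higher in ABA and VND1 did not pass. These are averages over the 3 genotypes, so each includes the line in which that gene is mutated. The VND7 call was lost without vnd7 ABA 3 (adjusted p = 0.0671).

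**Figure D5:**
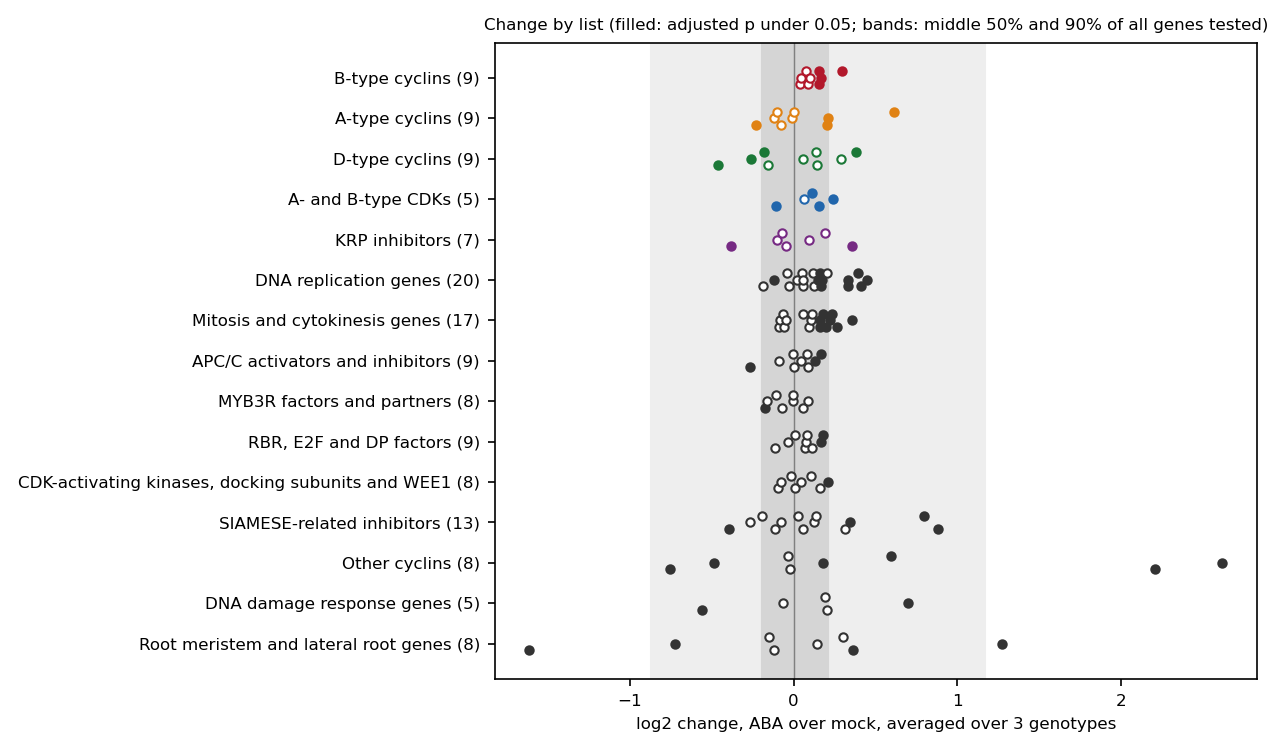
Log2 change, ABA over mock, averaged over the 3 genotypes, for each tested gene of the 5 classes and of the other lists, where filled points passed at an adjusted p under 0.05, and the grey bands hold the middle 50% and 90% of all genes tested. The 5 classes lie between -0.46 and 0.61, while CYCP4;2 and CYCP4;3 lie at 2.62 and 2.21 and GATA23 at -1.62.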

How the data were processed

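Root RNA was sequenced in 18 libraries as paired reads of 150 bases, per the labels' protocols, and the named kit carries no strand information. HISAT2 and HTSeq were used, per the submitters' processing notes; versions, options, genome build and annotation were not given in the sources used here. In the table deposited by the authors are whole-number counts per gene without normalization. All columns matched a sample, so 0 were left out. The 1385 features without a locus code took at most 0.00106% of a library's counts.

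Counts were fitted in R 4.3.3 with edgeR 4.0.16 (filterByExpr by group, TMM factors, quasi-likelihood F test, 1 coefficient per group, all 18 libraries). The common biological coefficient of variation was 0.106. Of 34218 features 20869 were tested, in 10 comparisons of vnd123, vnd7 and Col-0 in ABA and mock, with a Benjamini-Hochberg adjusted p under 0.05. The comparison averaged over genotypes weights each equally. Alternatives were DESeq2 1.42.0, other scalings and filters, fits of the compared groups alone, a replicate block and leaving out each library. Scripts were tested on simulated counts. No 2 replicates were copies: chi-square over degrees of freedom between them was 9.08 to 31.6.

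Genes and lists were chosen with earlier results of these data known. Values per library are given for the 16 called genes with the smallest adjusted p, group means for the other 2; each other list names up to 3 called genes, smallest p first, and genes named beyond that were chosen after their values were seen. Exon lengths, overlaps and names come from TAIR10.1, which named 127 of 138 list loci; no sequence or coordinate was taken from it, and a planned description of promoter letters was not run, because the build of the files is not named.

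Same-numbered replicates deviated together in all 3 numbers only between vnd7 mock and Col-0 mock (correlations of 0.492, 0.109 and 0.409 over 17247 genes). In each other pair of groups compared the lowest of the 3 correlations was negative. Single ones reached 0.395 for vnd7 ABA with vnd7 mock and 0.328 for vnd123 ABA with vnd123 mock.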

Additional observations from a re-analysis of the deposited data

How the results depend on the processing

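No called change among the cell cycle genes turned its direction under any alternative. Without scaling, the averaged changes of 5 genes that did not pass turned negative, those of CYCB2;1, CYCB2;2, CYCB2;3, CYCD3;3 and CDKB1;2. Without scaling of library sizes the counts of genes higher in ABA were 2 in Col-0 in place of 4, 3 in vnd123 in place of 5, 0 in vnd7 in place of 3, and 6 averaged over genotypes in place of 12. The counts of genes lower in ABA were then 7 in Col-0 in place of 3 and 9 in vnd7 in place of 4. Averaged over genotypes they were 9 in place of 6, so that lower calls outnumbered higher ones. All genes tested shifted the same way, from 5998 higher and 5109 lower to 4510 higher and 7346 lower in the averaged comparison. Their median log2 change without scaling was -0.07 in Col-0, -0.06 in vnd123 and -0.08 in vnd7. The share of higher calls was 54% for all genes and 66.7% for the cell cycle genes with TMM factors, and 38% and 40% without scaling. In vnd123 the count of higher genes was also 3 with DESeq2, with its size factors in edgeR, with no filter, with the stricter filter (CPM above 1 in 3 libraries) and with only the groups compared, a fit that gave 2 higher genes in Col-0. Averaged over genotypes, all 6 lower calls were kept in every alternative. Leaving out 1 library at a time gave 3 to 6 higher and 2 to 4 lower genes in vnd123, 2 to 4 and 3 to 5 in vnd7, 3 to 5 and 3 to 4 in Col-0, and 8 to 14 and 6 to 8 averaged over genotypes. It gave 0 in the genotype comparisons and interactions. With the replicate block the averaged counts kept all 12 higher and 6 lower calls. Except for vnd7 mock with Col-0 mock, the replicate numbers did not pair the samples in all 3 replicates. The cause of the lost calls was not tested. Over all genes, DESeq2 called 407 in place of 227 for vnd123 against Col-0 in ABA, 235 in place of 127 in mock, 159 in place of 34 for vnd7 in ABA, 38 in place of 14 in mock, and 6 in place of 0 for the interaction with vnd123. Depth limits CYCD6;1 and CYCA1;2, with under 100 reads in a library. Restricting the averaged comparison to the groups compared was not run, since it uses all groups.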
